A study of Homo sapiens with 8 samples.

Results

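The retinoid synthesis enzymes and receptors described here are 10 genes, RDH10, RDH11, DHRS3, ALDH1A1, ALDH1A2, ALDH1A3, CRABP2, RARA, RARB and RARG. They were picked out by symbol, with no threshold on a measured value, and all 10 were found among the 26443 genes with values in the deposited expression table. Expression was profiled by RNA sequencing in the prostate cancer line C4-2B, an LNCaP derivative that grows without androgen, after 7 days of treatment. The 4 groups of 2 libraries each were cells given ENZ at 10 uM, cells given EPZ6438 at 1 uM (EPZ), cells given both agents (Combination, for which no separate doses are stated), and cells given DMSO. All groups were the same line in serum-containing RPMI medium, and the labels do not tell whether both libraries of a group were separate cultures. The p-values therefore reflect the spread between these libraries, which may be technical. ENZ commonly stands for the androgen receptor antagonist enzalutamide. EPZ6438, also called tazemetostat, inhibits the histone methyltransferase EZH2. The design asks how each agent and their combination change gene expression.

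Retinoic acid is made from vitamin A in successive oxidations. Retinol is first oxidised to retinal, chiefly by RDH10, a step that DHRS3 and RDH11 run in reverse, and retinal is then oxidised irreversibly to retinoic acid by the retinaldehyde dehydrogenases ALDH1A1, ALDH1A2 and ALDH1A3. CRABP2 carries retinoic acid to the nucleus, where the receptors RARA, RARB and RARG bind DNA as heterodimers with RXR proteins. RARB and DHRS3 are known targets of retinoic acid, and ALDH1A3 and RDH11 are known as androgen-responsive genes in prostate cells.

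The promoters of 3 of the genes are shown because ALDH1A3 and DHRS3 had the largest changes and RARB carries a known retinoic acid response element. Each window runs from 250 bases before to 50 bases after an annotated start (RefSeq, GRCh38.p14). They lie at chr3:25428013-25428312 on the plus strand for RARB, chr15:100879581-100879880 on the plus strand for ALDH1A3 and chr1:12618161-12618460 on the minus strand for DHRS3. RARB has 4 windows in the reference table and DHRS3 has 3, of which the first listed is given. Capitals mark, in RARB, the stretch with GGTTCA and AGTTCA separated by 5 bases and, in ALDH1A3 and DHRS3, the matches to GGGCGG on either strand.
RARB: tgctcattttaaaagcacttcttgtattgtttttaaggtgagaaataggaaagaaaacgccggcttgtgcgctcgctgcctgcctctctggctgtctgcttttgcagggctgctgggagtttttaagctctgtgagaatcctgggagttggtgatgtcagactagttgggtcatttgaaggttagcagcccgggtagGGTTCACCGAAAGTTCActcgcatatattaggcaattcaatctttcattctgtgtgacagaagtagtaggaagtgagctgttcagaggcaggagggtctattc
ALDH1A3: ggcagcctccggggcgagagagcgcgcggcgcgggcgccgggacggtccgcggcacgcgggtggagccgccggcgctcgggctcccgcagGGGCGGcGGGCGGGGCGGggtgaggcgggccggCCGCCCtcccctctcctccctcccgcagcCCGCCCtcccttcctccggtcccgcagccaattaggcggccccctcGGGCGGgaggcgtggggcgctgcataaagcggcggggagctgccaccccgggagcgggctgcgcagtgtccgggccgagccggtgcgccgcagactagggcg
DHRS3: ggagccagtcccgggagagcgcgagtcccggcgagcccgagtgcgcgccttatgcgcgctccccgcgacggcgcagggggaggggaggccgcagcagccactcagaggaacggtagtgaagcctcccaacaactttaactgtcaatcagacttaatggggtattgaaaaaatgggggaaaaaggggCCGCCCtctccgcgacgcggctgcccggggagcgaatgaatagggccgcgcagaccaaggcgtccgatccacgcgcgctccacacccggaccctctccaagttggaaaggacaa
The first listed windows of 9 of the genes were searched on both strands, and RDH10 was not searched. The RARB element, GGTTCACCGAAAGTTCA, began 53 bases before the start, and its pattern of hexamers and spacing occurred in 0.0171% of 35116 promoter windows (6 windows), with RARB the only one of the 9 to hold it. The pattern searched was that of the known RARB element, so its match in RARB was given in advance and is not a finding. The element contains the half-site AGTTCA, found in 10.4% of windows. The other half-site searched, AGGTCA, was found in 13.8% of windows and among the 9 in RARA. GGGCGG was found in 45.0% of windows and in 5 of the 9, with 6 matches in ALDH1A3, a pair of which overlap, and 1 in DHRS3. The ALDH1A3 window was 81.7% G or C with 46 CpG dinucleotides, against 64.7% and 31 for DHRS3 and 46.7% and 7 for RARB. A pair of AGGTCA separated by 5 bases, in 0.0057% of windows, had no match in the 9, nor had AGAACA and TGTTCT separated by 3 bases, in 0.00285%. A match is a stretch of letters and does not show that a factor bound there.

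Levels are in FPKM, the fragments per kilobase of gene scaled to the size of the library, so they can be compared between genes. Depth, which was inferred from the spacing of low values, ranged from about 15400000 fragments (DMSO replicate 1) to about 24400000 (EPZ replicate 1). The ratios between libraries also gave the fragments behind each of the 10 genes, as the smallest whole numbers in those ratios. KLK3, an androgen-induced gene, stood at 225 and 223 FPKM in ENZ, 2800 and 2803 in EPZ, 383 and 400 in Combination, and 978 and 1015 in DMSO. All 8 luminal prostate markers examined had a mean of at least 1 FPKM in every group, and they summed to 952 to 956 FPKM in ENZ, 3713 to 3740 in EPZ, 958 to 984 in Combination, and 1656 to 1692 in DMSO. The 5 basal markers summed to at most 0.269 FPKM in any library. The 8 fibroblast, endothelial and leukocyte markers summed to 10.1 to 11.7 FPKM in ENZ, 13.6 to 13.7 in EPZ, 22.5 to 23.6 in Combination, and 9.87 to 10.2 in DMSO. Only COL1A1 and CD68 of these 8 averaged over 1 FPKM, and COL1A2 was listed at 0 throughout. The 6 neuroendocrine markers, chiefly ENO2, summed to 8.52 to 8.82 FPKM in ENZ, 2.43 to 2.82 in EPZ, 7.85 to 8.59 in Combination, and 2.03 to 2.27 in DMSO. All genes together summed to 218646 and 224223 FPKM in Combination, against 318599 and 314611 FPKM in DMSO. The part of these markers and totals in the results below was not tested.

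**Figure D1:**
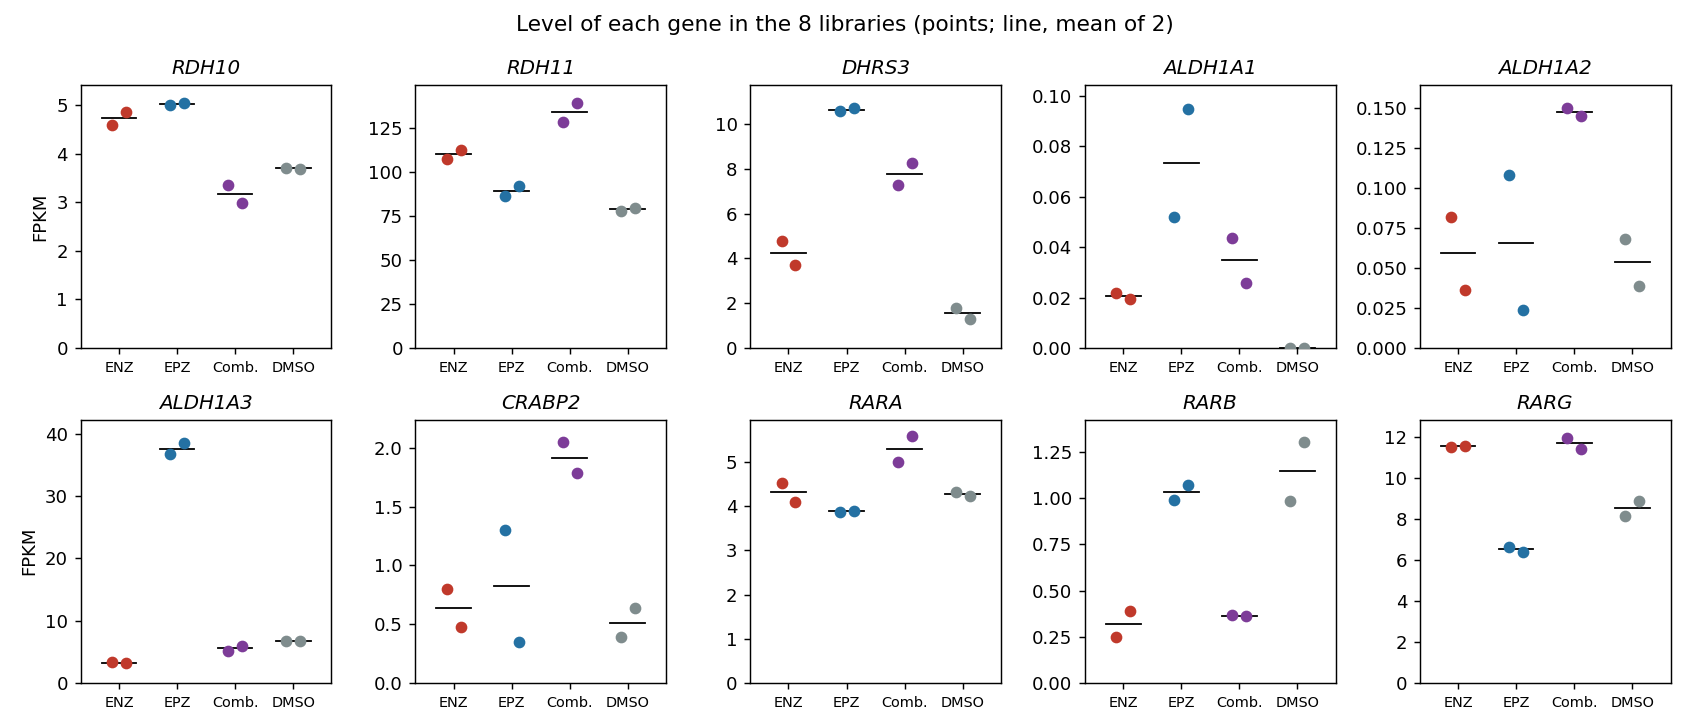
Level of each of the 10 genes in FPKM (vertical axis, from 0 and of its own range in each panel) by group (horizontal axis), with a point for each library and a line at the mean of 2. ALDH1A3 stands at 36.7 and 38.5 FPKM in EPZ and below 7 FPKM elsewhere, DHRS3 is lowest in DMSO, and ALDH1A1 and ALDH1A2 stay under 0.16 FPKM.

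Tests were run on log2(FPKM + 1) for the 11874 genes that averaged 1 FPKM or more over the 8 libraries, by limma with Benjamini-Hochberg adjustment over all of them, and a gene was called at an adjusted p under 0.05. RDH10, RDH11, DHRS3, ALDH1A3, RARA and RARG passed the filter. ALDH1A1, ALDH1A2, CRABP2 and RARB lay below it. With ENZ against DMSO 5 of the 6 tested were called, 4 higher and 1 lower, where 56.7% of all tested genes were called (27.9% higher and 28.8% lower). With EPZ against DMSO 5 were called, 4 higher and 1 lower, where 55.8% of all genes were called (23.4% higher and 32.4% lower). With Combination against DMSO 5 were called, again 4 higher and 1 lower, where 80.8% of all genes were called (33.3% higher and 47.4% lower). These shares are so high that a call alone says little about these genes. The median log2 change of the 6 was 0.34 with ENZ, 0.27 with EPZ and 0.33 with Combination. Over all tested genes the medians were 0.0049, -0.046 and -0.15 in the same order. The last of these was 0.0024 after median-of-ratios scaling, so changes in Combination as deposited sit about 0.15 lower than on that scale. The 3 comparisons share the DMSO libraries.

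**Figure D2:**
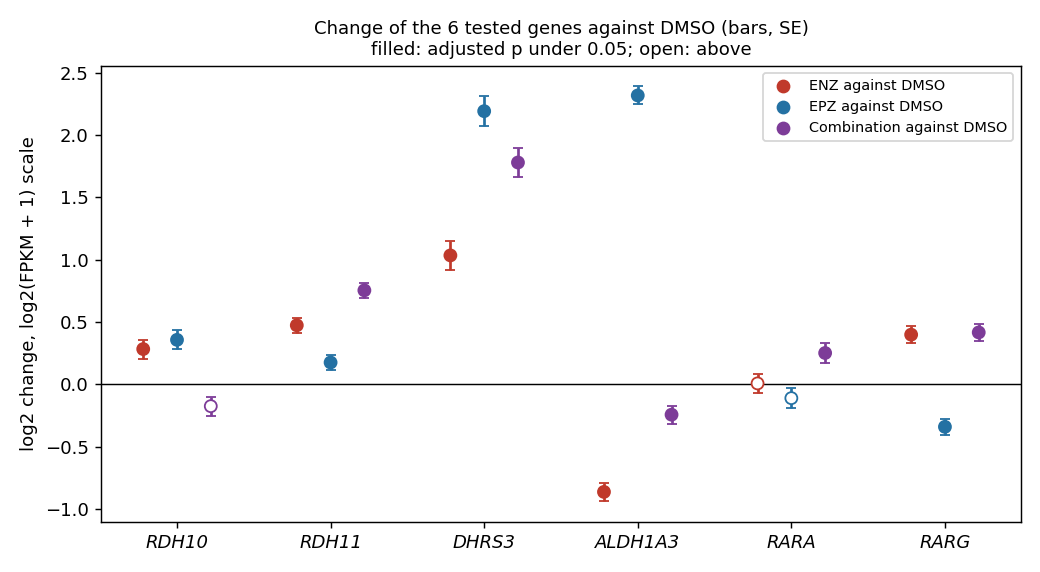
Change of the 6 tested genes against DMSO (vertical axis, log2 change on the log2(FPKM + 1) scale), with a point for each treatment and bars for the standard error. Filled points passed an adjusted p of 0.05. DHRS3 is above 1 in all 3 comparisons, whereas ALDH1A3 is at 2.32 with EPZ, -0.86 with ENZ and -0.24 with Combination.

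RDH10, the retinol-oxidising enzyme, rose with each agent alone and did not pass the test with both. It stood at 4.58 and 4.86 FPKM in ENZ, 4.99 and 5.05 in EPZ, 3.36 and 2.98 in Combination, and 3.71 and 3.69 in DMSO, from 193 to 483 fragments a library. Both single-agent groups lay above every DMSO library and both Combination libraries lay below. In bulk RNA, fewer cells that express a gene and less RNA per cell cannot be told apart. The log2 change was 0.28 (SE 0.076, adjusted p = 0.0106) with ENZ and 0.36 (SE 0.076, adjusted p = 0.00323) with EPZ. With Combination it was -0.18 (SE 0.076, adjusted p = 0.0562). That comparison passed under quantile normalization (-0.33, adjusted p = 0.0034), with a pseudocount of 0.1 (-0.22, adjusted p = 0.0494), and without Combination replicate 1 (-0.24, adjusted p = 0.0393), ENZ replicate 1 (adjusted p = 0.046) or ENZ replicate 2 (adjusted p = 0.0462), so its call is not settled. The ENZ call ended under quantile normalization (0.13, adjusted p = 0.208). On the opposite strand the gene (chr8:73294612-73325281, GRCh38, GENCODE release 29) overlaps RPL7 and the antisense RNA RDH10-AS1, and whether strand was used in counting is not known, so its values are uncertain. RDH10-AS1 was at most 0.334 FPKM in any library.

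RDH11 was the most abundant of the 10 genes in every library. This retinal reductase, at chr14:67676801-67695814 on the minus strand, stood at 107 and 112 FPKM in ENZ, 86.3 and 92.2 in EPZ, 128 and 139 in Combination, and 78.0 and 79.7 in DMSO, on 3090 to 6355 fragments. The groups did not overlap, and the order, low to high, was DMSO, EPZ, ENZ, Combination. On its own strand it overlaps the gene AL049779.1, not analysed here, with which reads may be shared. RDH11 rose with ENZ by 0.47 (SE 0.060, adjusted p = 1.52e-04) and with Combination by 0.75 (SE 0.060, adjusted p = 1.29e-06), which is 1.70-fold in mean FPKM. With EPZ it rose by 0.18 (SE 0.060, adjusted p = 0.0323), a call that ended without EPZ replicate 2 (0.13, adjusted p = 0.198), without DMSO replicate 1 (0.16, adjusted p = 0.149), without DMSO replicate 2 (0.19, adjusted p = 0.09), and with no expression filter (adjusted p = 0.0653). After quantile normalization the changes were larger, at 0.71 with ENZ, 0.33 with EPZ and 1.41 with Combination.

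DHRS3 rose in every treated group. The gene, which encodes the other retinal reductase and lies at chr1:12567910-12617731 on the minus strand, stood at 4.76 and 3.73 FPKM in ENZ, 10.6 and 10.7 in EPZ, 7.26 and 8.27 in Combination, and 1.81 and 1.32 in DMSO. No library overlapped between groups, and the order was DMSO, ENZ, Combination, EPZ. These levels rest on 158 and 140 fragments in ENZ, 444 and 412 in EPZ, 241 and 233 in Combination, and 48 and 46 in DMSO. In mean FPKM the gene was 2.72-fold higher with ENZ, 6.81-fold higher with EPZ and 4.97-fold higher with Combination. On the log2(FPKM + 1) scale, which understates changes of low genes, it rose by 1.03 (SE 0.12, adjusted p = 7.99e-05) with ENZ, by 2.19 (SE 0.12, adjusted p = 9.41e-07) with EPZ and by 1.78 (SE 0.12, adjusted p = 3.32e-07) with Combination. With a pseudocount of 0.1 the same changes were 1.39, 2.71 and 2.26.

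ALDH1A3 provided almost all of the transcript of the 3 ALDH1A genes in these cells, a sum that leaves out other aldehyde dehydrogenases. Of the summed FPKM of the 3 ALDH1A genes it made up 97.0% and 98.3% in ENZ, 99.6% and 99.7% in EPZ, 96.4% and 97.2% in Combination, and 99.0% and 99.4% in DMSO. The sum itself was 3.43 and 3.26 FPKM in ENZ, 36.9 and 38.6 in EPZ, 5.38 and 6.10 in Combination, and 6.77 and 6.84 in DMSO. It was therefore highest in EPZ and lowest in ENZ, and groups did not overlap.

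ALDH1A3 itself, at chr15:100877714-100916626 on the plus strand, stood at 3.32 and 3.21 FPKM in ENZ, 36.7 and 38.5 in EPZ, 5.19 and 5.93 in Combination, and 6.70 and 6.80 in DMSO. The fragments behind these values were 231 and 252 in ENZ, 3234 and 3103 in EPZ, 361 and 350 in Combination, and 373 and 498 in DMSO. Mean FPKM was 5.57-fold higher with EPZ and 0.483 of the DMSO level with ENZ. The gene rose by 2.32 (SE 0.072, adjusted p = 5.17e-08) with EPZ and fell by 0.86 (SE 0.072, adjusted p = 1.25e-05) with ENZ. With Combination the change was -0.24 (SE 0.072, adjusted p = 0.0106), and that call ended after median-of-ratios scaling (-0.091, adjusted p = 0.239), without Combination replicate 1 (-0.16, adjusted p = 0.104) and without DMSO replicate 2 (-0.23, adjusted p = 0.0512). ALDH1A3 overlaps AC015712.5 on its own strand and the antisense RNAs AC015712.7 and AC015712.2, none analysed here, so reads may be shared and its values carry that uncertainty. The androgen-induced genes KLK3 and TMPRSS2 showed the same directions with the single agents, as did the luminal marker sums given above. KLK3 changed by -2.15 (SE 0.047) with ENZ and 1.49 (SE 0.047) with EPZ, and TMPRSS2 by -2.14 (SE 0.050) and 2.08 (SE 0.050). RDH11, also named above as androgen-responsive, did not share the direction with ENZ, where it rose by 0.47 (SE 0.060).

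ALDH1A1 and ALDH1A2 were at the limit of detection. ALDH1A1 rested on 1 and 1 fragments in ENZ, 3 and 5 in EPZ, 2 and 1 in Combination, and none in either DMSO library, where 3 fragments would have been 0.0355 FPKM over the group. The pooled EPZ level of 0.0723 FPKM had an exact Poisson 95% interval of 0.0312 to 0.142, and the upper bound in DMSO was 0.0436, so the counting intervals overlap. ALDH1A2 rested on 6 and 3 fragments in ENZ, 10 and 2 in EPZ, 11 and 9 in Combination, and 4 and 3 in DMSO. Its pooled level was 0.148 FPKM in Combination (interval 0.0902 to 0.228) and 0.0516 in DMSO (interval 0.0207 to 0.106), again overlapping. These intervals cover counting error only and are not a test of the difference. In the limma fit with no expression filter, over 21026 genes, 32.3% of all genes were called with ENZ, 31% with EPZ and 58.9% with Combination against DMSO. There ALDH1A1 changed by 0.10 (SE 0.024, adjusted p = 0.0217) with EPZ, a call that ended without DMSO replicate 1 (adjusted p = 0.0899), without DMSO replicate 2 (adjusted p = 0.0873) and in a fit of the compared groups alone (adjusted p = 0.0787). ALDH1A2 changed by 0.12 (SE 0.043, adjusted p = 0.0488) with Combination. That call ended with a pseudocount of 0.1 (adjusted p = 0.0754) and when any of the ENZ, Combination or DMSO libraries was left out (adjusted p = 0.0659 to 0.199), and its direction turned with quantile normalization (-0.029, adjusted p = 0.674). With so few fragments neither call is settled.

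CRABP2, the retinoic acid carrier, was low in all groups. It stood at 0.802 and 0.473 FPKM in ENZ, 1.3 and 0.346 in EPZ, 2.05 and 1.78 in Combination, and 0.390 and 0.635 in DMSO. Only the Combination libraries were both above all others. The EPZ libraries differed from each other by more than counting error, with 37 fragments (exact Poisson 95% interval 0.917 to 1.79 FPKM) in replicate 1 and 9 fragments (0.158 to 0.657 FPKM) in replicate 2. Combination had 46 and 34 fragments and DMSO 7 and 15. In the fit with no expression filter the change was 0.95 (SE 0.26, adjusted p = 0.0192) with Combination, 0.11 (adjusted p = 0.842) with ENZ and 0.22 (adjusted p = 0.601) with EPZ. The Combination call ended without Combination replicate 1 (0.89, adjusted p = 0.119) or 2 (1.02, adjusted p = 0.0855), without DMSO replicate 1 (0.83, adjusted p = 0.11) or 2 (1.07, adjusted p = 0.0564), and with quantile normalization (0.59, adjusted p = 0.11). The mean over all libraries, 0.973 FPKM, lay just under the filter of 1 FPKM.

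Among the receptors, RARG was the most abundant in every library and RARB the least. RARG, at chr12:53210567-53232980 on the minus strand, stood at 11.5 and 11.6 FPKM in ENZ, 6.61 and 6.41 in EPZ, 12 and 11.4 in Combination, and 8.16 and 8.88 in DMSO, on 432 to 866 fragments. EPZ libraries were the lowest and DMSO next, and ENZ and Combination overlapped at the top. RARG rose by 0.40 (SE 0.066, adjusted p = 7.16e-04) with ENZ and by 0.42 (SE 0.066, adjusted p = 2.03e-04) with Combination, and fell by 0.34 (SE 0.066, adjusted p = 0.00181) with EPZ. Combination against ENZ gave 0.018 (SE 0.066, adjusted p = 0.819). That comparison passed after median-of-ratios scaling (0.19, adjusted p = 0.0271) and after quantile normalization (0.23, adjusted p = 0.0107).

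RARA, on chromosome 17, passed the test against DMSO with both agents and with neither alone. It stood at 4.53 and 4.09 FPKM in ENZ, 3.88 and 3.90 in EPZ, 5.0 and 5.59 in Combination, and 4.33 and 4.24 in DMSO, on 291 to 420 fragments. Combination libraries were the highest, and ENZ and DMSO overlapped. The changes were 0.0073 (SE 0.079, adjusted p = 0.945) with ENZ and -0.11 (SE 0.079, adjusted p = 0.256) with EPZ. With Combination RARA rose by 0.25 (SE 0.079, adjusted p = 0.014), a call that ended without Combination replicate 2 (0.18, adjusted p = 0.115) and without DMSO replicate 2 (0.24, adjusted p = 0.0632). RARA overlaps the antisense RNA RARA-AS1, at 1.28 and 1.08 FPKM in ENZ, 1.33 and 1.83 in EPZ, 1.88 and 2.08 in Combination, and 0.869 and 0.908 in DMSO, so its values are uncertain and the part of RARA-AS1 in them was not tested.

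RARB, at chr3:25174332-25597932, was lower in the groups that received ENZ. It stood at 0.249 and 0.388 FPKM in ENZ, 0.993 and 1.07 in EPZ, 0.365 and 0.362 in Combination, and 0.986 and 1.31 in DMSO. The fragments were 17 and 30 in ENZ, 86 and 85 in EPZ, 25 and 21 in Combination, and 54 and 94 in DMSO. All 4 ENZ-treated libraries lay below all 4 others, and the EPZ values fell within the DMSO range. Mean FPKM was 0.278 of the DMSO level in ENZ and 0.317 in Combination. RARB averaged 0.715 FPKM over all libraries and was outside the main test. With no expression filter it fell by 0.70 (SE 0.089, adjusted p = 0.0025) with ENZ and by 0.65 (SE 0.089, adjusted p = 0.00104) with Combination, and with EPZ the change was -0.074 (SE 0.089, adjusted p = 0.62). With a pseudocount of 0.1 the same changes were -1.58, -1.41 and -0.13. The ENZ call ended in a fit of the compared groups alone (adjusted p = 0.0545). RARB overlaps TOP2B on the opposite strand, which makes its values uncertain.

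The make-up of the receptor family is given as a description. The summed FPKM of the 3 receptors was 16.3 and 16.1 in ENZ, 11.5 and 11.4 in EPZ, 17.3 and 17.4 in Combination, and 13.5 and 14.4 in DMSO. RARB made up 1.53% and 2.41% of the sum in ENZ, 8.64% and 9.42% in EPZ, 2.11% and 2.08% in Combination, and 7.32% and 9.05% in DMSO. RARG made up 70.6% and 72.1% in ENZ, 57.6% and 56.3% in EPZ, 69.0% and 65.8% in Combination, and 60.6% and 61.6% in DMSO. ENZ and Combination libraries had the lower RARB shares and the higher RARG shares. The ratio of DHRS3 to RDH10, enzymes that act in opposite directions on the same step, was 1.04 and 0.767 in ENZ, 2.12 and 2.12 in EPZ, 2.16 and 2.78 in Combination, and 0.487 and 0.356 in DMSO. Transcript ratios do not give enzyme activities.

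**Figure D3:**
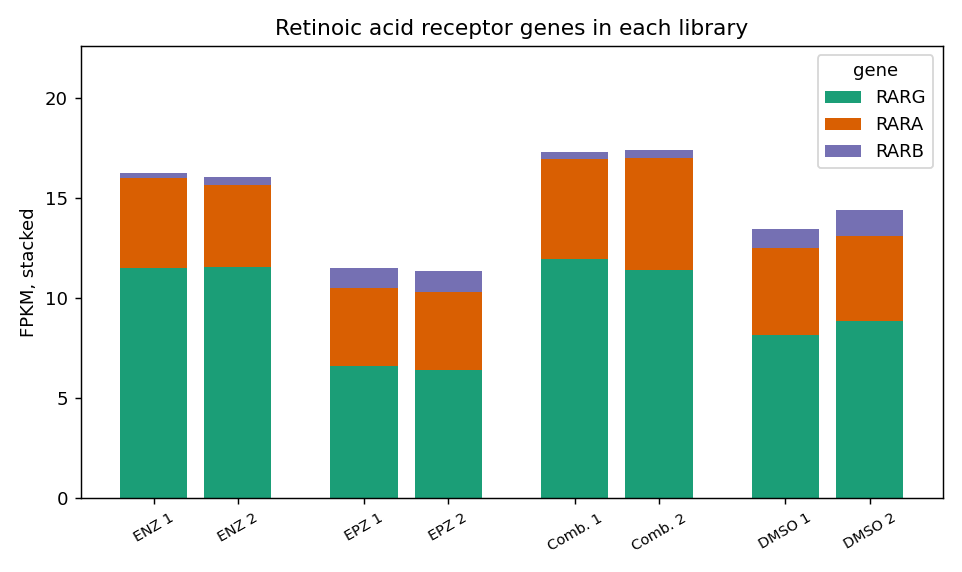
FPKM of RARG, RARA and RARB (vertical axis, stacked) in each of the 8 libraries (horizontal axis). The stack is 16.1 to 17.4 FPKM in the 4 ENZ-treated libraries and 11.4 to 14.4 FPKM in the others, and the RARB segment is thinnest in the 4 ENZ-treated libraries.

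The effect of EPZ6438 was next compared between cells with and without ENZ. With Combination against ENZ 5 of the 6 tested genes were called, 4 higher and 1 lower, where 70.8% of all genes were called (25.3% higher and 45.5% lower). The interaction term, Combination minus ENZ minus EPZ plus DMSO, was called for 5 of the 6, 3 of them lower and 2 higher, where 39.6% of all genes were called (9.99% higher and 29.6% lower). ALDH1A3 rose by 0.62 (SE 0.072, adjusted p = 3.71e-05) when EPZ6438 was added to ENZ, against 2.32 when it was given alone, an interaction of -1.7 (SE 0.10, adjusted p = 3.93e-06). For DHRS3 the change was 0.74 (SE 0.12, adjusted p = 3.07e-04) with ENZ present and 2.19 without it, an interaction of -1.45 (SE 0.17, adjusted p = 1.54e-04). RDH10 fell by 0.46 (SE 0.076, adjusted p = 4.17e-04) with ENZ present and rose by 0.36 without it, an interaction of -0.81 (SE 0.11, adjusted p = 3.39e-04). These 3 genes were thus below the sum of the single-agent changes in Combination. RDH11 rose by 0.28 (SE 0.060, adjusted p = 0.0021) and RARA by 0.24 (SE 0.079, adjusted p = 0.019) with ENZ present. The RARA call ended without ENZ replicate 2 (0.18, adjusted p = 0.0864), without Combination replicate 2 (0.18, adjusted p = 0.144) and in a fit of the compared groups alone (adjusted p = 0.0515).

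The 2 tested receptors, RARG and RARA, went the other way. RARG had an interaction of 0.36 (SE 0.093, adjusted p = 0.0129) and RARA of 0.35 (SE 0.11, adjusted p = 0.0305). RARB was not called for it in the limma fit with no expression filter (0.13, SE 0.13, adjusted p = 0.541). The RARG call ended without EPZ replicate 2 (0.34, adjusted p = 0.0564), Combination replicate 1 (0.33, adjusted p = 0.0533) or DMSO replicate 2 (0.3, adjusted p = 0.062). The RARA call ended with no expression filter (adjusted p = 0.0608) and without 6 of the 8 libraries taken 1 at a time, that is ENZ replicate 2 (adjusted p = 0.0651), EPZ replicates 1 and 2 (adjusted p = 0.0819 and 0.0858), Combination replicate 2 (adjusted p = 0.111), and DMSO replicates 1 and 2 (adjusted p = 0.0842 and 0.068). RDH11 had an interaction of 0.11 (SE 0.085, adjusted p = 0.358), which passed after median-of-ratios scaling (0.24, adjusted p = 0.0322) and quantile normalization (0.37, adjusted p = 0.00524).

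**Figure D4:**
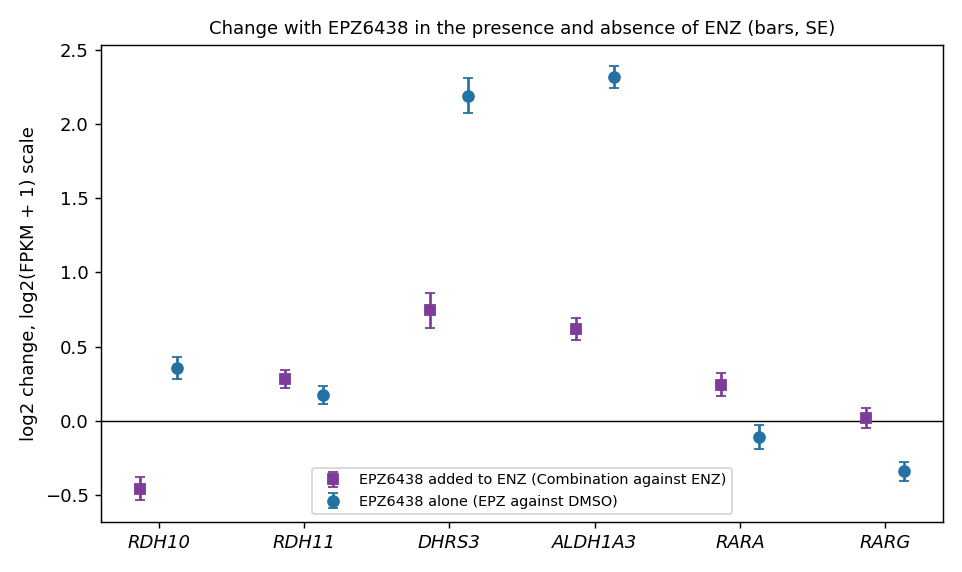
Change with EPZ6438 (vertical axis, log2 change on the log2(FPKM + 1) scale, bars for the standard error) in cells also given ENZ (squares, Combination against ENZ) and in cells not given ENZ (circles, EPZ against DMSO). ALDH1A3 is at 0.62 with ENZ present and 2.32 without it, DHRS3 at 0.74 and 2.19, and RDH10 at -0.46 and 0.36.

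Set against EPZ, Combination gave calls for all 6 tested genes, 3 higher and 3 lower, where 72.8% of all genes were called (29.2% higher and 43.7% lower). ALDH1A3 fell by 2.56 (SE 0.072, adjusted p = 4.24e-09), to 5.19 and 5.93 FPKM in Combination, against 36.7 and 38.5 FPKM in EPZ. RDH10 fell by 0.53 (SE 0.076, adjusted p = 1.40e-04) and DHRS3 by 0.41 (SE 0.12, adjusted p = 0.0103), the last a call that ended without Combination replicate 1 (-0.33, adjusted p = 0.0753). RARG rose by 0.76 (SE 0.066, adjusted p = 3.91e-06), RDH11 by 0.58 (SE 0.060, adjusted p = 1.43e-05) and RARA by 0.36 (SE 0.079, adjusted p = 0.00217). DHRS3 thus rose when ENZ was given alone and fell when ENZ was added to EPZ6438.

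Other genes of the pathway came from lists drawn up from general knowledge. Of 27 further genes of vitamin A metabolism 7 passed the expression filter. Of these 7, 2 were higher and 4 lower with ENZ (median -0.25), 2 higher and 2 lower with EPZ (median 0.11), and 2 higher and 4 lower with Combination (median -0.47). Of all tested genes 27.9% were higher and 28.8% lower with ENZ, 23.4% and 32.4% with EPZ, and 33.3% and 47.4% with Combination. RETSAT, which saturates retinol, rose to 54.7 ± 0.918 FPKM in Combination, against 22.3 ± 0.0967 in DMSO (SD, n = 2 each), a change of 1.26 (SE 0.054, adjusted p = 1.56e-08). RDH16, a retinol dehydrogenase, stood at 0.350 ± 0.0694 FPKM in ENZ, 2.59 ± 0.0298 in EPZ, 0.461 ± 0.0994 in Combination, and 1.88 ± 0.156 in DMSO. It fell by 1.09 (SE 0.10, adjusted p = 2.19e-05) with ENZ and by 0.98 (SE 0.10, adjusted p = 8.22e-06) with Combination, and rose by 0.32 (SE 0.10, adjusted p = 0.022) with EPZ. With Combination DHRS4 fell by 0.61 (SE 0.081, adjusted p = 5.67e-05), though near-identical copies of it make its values uncertain, and RDH14 by 0.64 (SE 0.098, adjusted p = 1.69e-04). FABP5, which also carries retinoic acid, was listed at 0 in all libraries. How reads that match several places were counted is not stated, so this 0 may not mean absence.

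Partners of the receptors moved mostly upward with both agents together. Of 13 genes, namely RXR heterodimer partners, corepressors, coactivators and PPARD, 12 were tested. With ENZ 6 were higher and 2 lower, where 27.9% of all tested genes were higher and 28.8% lower. With EPZ 5 were higher and 2 lower, against 23.4% and 32.4%. With Combination 10 were higher and 2 lower, against 33.3% and 47.4%. Their median change with Combination was 0.66, against -0.15 over all tested genes. The genes lower with Combination were NCOA1 and MED1. Mean NCOA1 was 16.6 FPKM in ENZ, 15.5 in EPZ, 16.5 in Combination and 27.0 in DMSO. Mean MED1 was 11.5 FPKM in Combination and 17.3 in DMSO. RXRA, the main RXR gene here, stood at 35.0 ± 2.88 FPKM in ENZ, 24.8 ± 0.512 in EPZ, 61.5 ± 1.73 in Combination, and 24.3 ± 0.447 in DMSO (SD, n = 2 each). It rose by 1.3 (SE 0.065, adjusted p = 4.47e-08) with Combination and by 0.50 (SE 0.065, adjusted p = 1.67e-04) with ENZ, and with EPZ the change was 0.028 (adjusted p = 0.738). The coactivator genes NCOA3 and NCOA2 rose with Combination by 1.45 (SE 0.069, adjusted p = 3.00e-08) and 1.11 (SE 0.074, adjusted p = 3.19e-07). PPARD, a separate nuclear receptor for fatty acids that was counted in the list, rose by 1.52 (SE 0.060, adjusted p = 9.35e-09).

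Genes known to be induced by retinoic acid in some cell type mostly lay under the expression filter. Of the 20 examined, 4 were tested, with 1 higher and 1 lower with ENZ, 2 and 2 with EPZ, and 2 and 2 with Combination. Of all tested genes 56.7% were called with ENZ, 55.8% with EPZ and 80.8% with Combination, so these counts say little. BTG2, an antiproliferative gene, rose by 1.47 (SE 0.058, adjusted p = 8.50e-09) and HOXA5 by 1.03 (SE 0.17, adjusted p = 2.31e-04) with Combination, whereas RAI14 fell by 0.66 (SE 0.073, adjusted p = 1.43e-05) and MEIS1 by 0.35 (SE 0.11, adjusted p = 0.0129). With ENZ BTG2 rose by 0.42 (SE 0.058, adjusted p = 2.30e-04) and MEIS1 fell by 0.70 (SE 0.11, adjusted p = 5.15e-04). HOXA5 (0.30, adjusted p = 0.143) and RAI14 (0.033, adjusted p = 0.719) were not called with ENZ. Of 15 aldehyde dehydrogenase genes outside the ALDH1A group 11 were tested. With ENZ 3 were higher and 6 lower, where 27.9% of all tested genes were higher and 28.8% lower. With EPZ 1 was higher and 5 lower, against 23.4% and 32.4%. With Combination 2 were higher and 7 lower, against 33.3% and 47.4%. ALDH1B1, a mitochondrial member, fell to 10.9 ± 0.030 FPKM in Combination, against 57.7 ± 2.36 in DMSO (SD, n = 2 each), a change of -2.3 (SE 0.056, adjusted p = 6.01e-10). ALDH4A1, of proline breakdown, rose by 0.96 (SE 0.055, adjusted p = 1.39e-06) with EPZ and fell by 0.27 (SE 0.055, adjusted p = 0.00247) with ENZ.

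Across the 8 libraries the tested genes whose log2(FPKM + 1) followed ALDH1A3 most closely were APMAP (Pearson r = 0.997), KCNMA1 (r = 0.997), MAF (r = 0.997), CRISP3 (r = 0.995) and MOAP1 (r = 0.995). CRISP3 changed by -1.33 with ENZ, 2.63 with EPZ and -0.59 with Combination. MAF changed by -1.03, 2.22 and -0.23 in the same order, close to the values of ALDH1A3. For DHRS3 they were CHPF2 (r = 0.995), RAPGEF3 (r = 0.989), RAB25 (r = 0.985), TNFRSF10D (r = 0.985) and MAPRE3 (r = 0.984). These correlations are descriptions over 8 libraries in 4 groups, and they rest on the differences between groups.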

How the data were processed

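RNA of C4-2B cells was sequenced in 8 libraries, made with a NEBNext Ultra kit, per the labels' protocols. The authors deposited FPKM values, with a column per library and no counts. Per the submitters' processing notes, STAR and the build hg38 were used. The counter, annotation and strand setting are not stated in the sources used. Each column was assigned through the library name in its sample's description.

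The value of 1 fragment in each library relative to DMSO replicate 1 came from the ratios of FPKM under 0.1. Of 801 to 1314 such genes 92.6% to 96.0% stood in ratios of whole numbers up to 10 within 0.04%. The absolute scale came from exonic lengths (GENCODE release 29) of 558 single-transcript genes, 55.0% within 5% of their median, so total depths are estimates. The fragments of the 10 genes are the smallest whole numbers in those ratios, and true numbers could be a multiple.

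Changes were tested with limma 3.58.1 in R 4.3.3 (group means, moderated two-sided test with an expression trend, 4 residual and 5.47 prior degrees of freedom) in 6 comparisons, with Benjamini-Hochberg adjustment for each. The fit was tested on simulated data. The genes, lists and tests were chosen with earlier results of these data known. Named genes are the 10, up to 4 genes a list (those of smallest unadjusted p against DMSO), the 5 genes most correlated with each of the 2 most variable of the 10 by F-test, and KLK3, TMPRSS2, FKBP5 and EZH2. Of these last, FKBP5 changed by -2.43 with ENZ, 0.56 with EPZ and -3.33 with Combination, and EZH2 by -0.054, -0.71 and -1.86. NCOA1 and MED1 were named in addition, as the receptor partners lower with Combination. Alternatives were a pseudocount of 0.1, no filter, a filter at 5 FPKM, quantile normalization, median-of-ratios scaling, only the compared groups, a replicate block, and leaving out each library, with the same run on the fit with no filter for genes under it. Figures used Python 3.11.15 with matplotlib 3.10.9.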

Additional observations from a re-analysis of the deposited data

Results flagged for a closer look

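The change with EPZ6438 differed between cells with and without ENZ, by the interaction term, for 5 of the 6 tested genes. Of all tested genes 39.6% were called for this term (9.99% higher and 29.6% lower). The difference was -1.7 for ALDH1A3, -1.45 for DHRS3, -0.81 for RDH10, 0.36 for RARG and 0.35 for RARA, in log2(FPKM + 1). The last pair of calls ended when single libraries were left out, as given above.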

How the results depend on the processing

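Counts of called genes over the whole table stayed within 1.5 times under every alternative run. Leaving out 1 library gave 5265 to 6582 calls for ENZ (6733 with all libraries), 4899 to 7218 for EPZ (6623), 8923 to 9814 for Combination (9591), 7425 to 8259 for Combination against ENZ (8403), 7556 to 9051 for Combination against EPZ (8650), and 3395 to 5272 for the interaction (4703). For Combination against ENZ 35.7% of calls were higher as deposited, 51.2% with median-of-ratios scaling and 51.0% with quantile normalization, and for the interaction 25.2%, 44.3% and 49.3%. For the 6 tested genes, 223 of 234 values under these settings kept their direction and side of the threshold, 5 lost and 6 gained a call, and none that was called reversed. Leaving out libraries kept 266 of 288, with 19 lost and 3 gained. The calls of ALDH1A3 and DHRS3 in comparisons of single agents with DMSO, and their interactions, were kept in all alternatives run. The filter at 5 FPKM left out RDH10 and RARA. The replicate numbers in the labels are not stated to mark a shared culture or day, and deviations of same-numbered libraries correlated at -0.015 to 0.11 between groups. With the replicate number as a block, 6914 genes were called for ENZ, 6783 for EPZ, 9657 for Combination, 8515 for Combination against ENZ, 8783 for Combination against EPZ and 4942 for the interaction, and none of the 36 values of the 6 tested genes changed its call. For the 4 genes under the filter, alternatives to the fit with no expression filter were added after seeing the data. RARB kept 28 of 29 values under other settings, the replicate block among them, and 48 of 48 with a library left out. CRABP2 kept 25 of 29 and 37 of 48, ALDH1A1 25 of 29 and 42 of 48, and ALDH1A2 24 of 29 and 39 of 48. Under quantile normalization the change with Combination turned to -0.029 for ALDH1A2 and to -0.33 for TGM2 (adjusted p = 0.00444). With the block ALDH1A2 passed in Combination against ENZ (0.12, adjusted p = 0.0318) and against EPZ (0.11, adjusted p = 0.038). Of 982 list counts 82 were lower and 44 higher by over 1.5 times. With 2 libraries a group, and for genes under 1 FPKM few fragments, smaller changes cannot be seen.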

Other observations

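A few retinoid genes below the expression filter, chosen after their values were seen, also differed between groups. CYP26B1, which degrades retinoic acid, rested on 5 and 17 fragments in ENZ, 8 and 8 in EPZ, 35 and 36 in Combination, and 1 and 1 in DMSO. In the fit with no expression filter it was 0.51 higher with Combination (SE 0.053, adjusted p = 3.10e-04), and 0.14 (adjusted p = 0.11) with ENZ and 0.087 (adjusted p = 0.296) with EPZ. CYP26A1, the related enzyme that retinoic acid strongly induces in many cells, had at most 4 fragments in any library. RARRES3, a retinoic acid responder gene, stood at 0.543 and 0.480 FPKM in ENZ, 0.589 and 0.351 in EPZ, 2.37 and 2.24 in Combination, and 0.170 and 0.129 in DMSO, with a change of 1.52 (SE 0.086, adjusted p = 2.18e-05) with Combination and of 0.40 (adjusted p = 0.0166) with ENZ. The ENZ call ended without any one of the ENZ and DMSO libraries (adjusted p = 0.055 to 0.0934) and with quantile normalization (adjusted p = 0.0665). TGM2, a transglutaminase gene known as a retinoic acid target, instead was highest with EPZ alone. It stood at 0.0508 and 0.0674 FPKM in ENZ, 1.75 and 1.70 in EPZ, 0.520 and 0.299 in Combination, and 0.397 and 0.362 in DMSO. The change was 0.98 (SE 0.077, adjusted p = 5.04e-04) with EPZ and -0.38 (SE 0.077, adjusted p = 0.013) with ENZ, where the call ended without any one of the ENZ and DMSO libraries (adjusted p = 0.0566 to 0.078). With ENZ, these few retinoic acid targets thus went both ways, with RARB and TGM2 lower, DHRS3 and RARRES3 higher, and CYP26B1 not called. Of these calls only that of DHRS3 was kept in all alternatives, as given above. BTG2 and MEIS1, from the list of retinoic acid-induced genes above, also differed in direction with ENZ.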
